A study of Mus musculus with 20 samples.

Results

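The 7 genes described here, Gabra2, Gabra3, Gabra5, Gabrb1, Gabrb2, Gabrg1 and Gabrg3, encode alpha, beta and gamma subunits of the GABA-A receptor and were followed in lumbar dorsal root ganglia of mice, where the cell bodies of sensory neurons sit next to the spinal cord. They were matched by gene symbol to the 55416 Ensembl IDs counted in each library, and all 7 passed the filter on low counts in every comparison. The 7 were chosen with earlier results of these data known. They are a part of the family, and 12 other ionotropic GABA receptor subunit genes are not among them. Between animals deposited as control and as Prdm12 knockout, 0 of the 7 passed the test over animal totals. Gabrb1 fell in formalin libraries of the knockout among animals whose genotype records agree, where 9.14% of all genes were called. Its log2 fold was -1.06 (SE 0.23) over 2 knockout libraries, both from males, and 3 control libraries from both sexes. The fall of Gabrb1 was the one call by edgeR among the 7 genes in any comparison. It was lost without control 3 or control 5 and with all animals by deposited name.

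GABA-A receptors are chloride channels opened by GABA, the main inhibitory transmitter of the adult nervous system. Alpha and beta subunits form the GABA binding site, and a gamma subunit beside an alpha subunit forms the benzodiazepine site. Sensory neurons of the dorsal root ganglion keep a high internal chloride, loaded by the cotransporter encoded by Slc12a2, so that GABA depolarises them, and the receptors on their central terminals take part in presynaptic inhibition in the spinal cord.

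The libraries were polyA RNA of L3 to L5 ganglia from 10 adult C57Bl6 mice of both sexes, 1 month after tamoxifen, with 1 library after formalin and 1 noninjected library per mouse. Formalin is an irritant used to cause inflammatory pain, and the sources used here do not give the site or time of injection. By the labels, control mice were homozygous for a floxed allele of Prdm12 (P12 Fl/Fl) and received tamoxifen, and inducible conditional knockout (icKO) mice additionally carried a tamoxifen-activated Cre, named AdvCreERT2 in the sample labels and Rosa26CreERT2 in the series text. Prdm12 encodes a transcriptional regulator of the nociceptor lineage. An Adv (advillin) driver would act mainly in sensory neurons and a Rosa26 driver in all cells, and the 2 records do not settle which was used. Floxed alleles and tamoxifen were therefore common to all animals. By the labels the Cre was in icKO mice alone, so its presence and the loss of Prdm12 cannot be told apart.

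The genotype word under which the counts were deposited differs from the sample title for 4 of the 10 animals: those titled control 1 and control 4 were deposited as icKO, and those titled icKO 2 and icKO 3 as control. Results are given by deposited name, for the 6 animals whose records agree (control 2, 3 and 5; icKO 1, 4 and 5) and, over animal totals, by title. Animals keep their title names throughout. Control 1 and 2 and icKO 1, 2 and 3 were female, and control 3, 4 and 5 and icKO 4 and 5 were male. In animal totals, the sum of both libraries of a mouse, Prdm12 was at 90.7 ± 11.8 counts per 1000000 reads assigned to genes (CPM) in animals deposited as control and 23.7 ± 6.04 CPM in those deposited as icKO (SD, 5 animals each), and these groups did not overlap (two-sided exact permutation test, p = 0.00794). By title the means were 68.2 ± 36.1 and 46.3 ± 37.2 CPM, with overlap (p = 0.238 in the same exact test).

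The 19 libraries used held 11763893 to 22392635 counts. The formalin library of icKO 1 held 2829 counts, 0 of them on the 7 genes, and was left out, so icKO 1 enters animal totals by its noninjected library. Pan-neuronal markers summed to between 8534 and 13408 CPM in every library, and the median level of Mog, Opalin, Olig2, Neurod2 and Slc6a5, 5 of 7 central nervous system markers, was under 1 CPM. The icKO 5 formalin library stood apart by its skeletal muscle markers, at 1777 CPM where the median library had 21 CPM. The icKO 4 formalin library had the highest summed neutrophil markers, at 3216 CPM against a median of 473 CPM.

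By the mouse annotation GENCODE M21, Gabra2, Gabrg1 and Gabrb1 lie on chromosome 5, Gabra5 and Gabrg3 on chromosome 7, Gabrb2 on chromosome 11 and Gabra3 on chromosome X. Their exons cover from 2974 bp (Gabra5) to 13838 bp (Gabrb1). Gabrb1 shares 46 bp of exon with a gene on the opposite strand that held 593 counts over the 19 libraries, against 2931 for Gabrb1, and Gabra5 shares 148 bp with the antisense gene Gm9962, which held 39 counts against 2041. The kit did not mark strand, so reads in these stretches cannot be assigned to either gene.

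RefSeq places 11 transcription start windows (250 bases before to 50 after the start, build GRCm38.p6) at the 7 genes. The CpG count differed between windows. It was 25 at Gabra2 and at the first Gabrb1 window, 13 at Gabra5 and Gabrg3, 9 to 11 at the 3 Gabrb2 windows, 9 at the second Gabrb1 window, 3 at Gabrg1 and 0 at both Gabra3 windows, against a median of 7 over 32851 windows of 27025 genes. Each window was searched on both strands for the GC box (GGGCGG), the TATA box (TATAAA) and the E-box CACGTG. Within a window, 0 matches overlapped one another. The GC box was found in 35.7% of all windows and here in 3 of 11, at Gabra2, Gabrg3 and the first Gabrb2 start. TATAAA was found in 13.6% of all windows and here in 3 of 11, at the first Gabrb2 start and in both overlapping Gabra3 windows. Both Gabra3 windows hold the same site, with the match on the strand opposite to the gene. CACGTG was found in 7.15% of all windows and in 0 of the 11. A match is a run of letters and not a binding site, and no match says only that these letters are not in this window. Windows of 3 genes are shown with matches in capitals, chosen because they differ in these features: that of Gabra2 on the minus strand (chr5:71095800-71096099), with 25 CpG and 2 GC boxes (1 on each strand), the first start of Gabrb1 on the plus strand (chr5:71657671-71657970), with 25 CpG and no match, and the first start of Gabrb2 on the plus strand (chr11:42420190-42420489), with a GC box from base 18 and TATAAA from base 221 of the window. The second Gabrb1 start lies 42011 bp from the first.
Gabra2: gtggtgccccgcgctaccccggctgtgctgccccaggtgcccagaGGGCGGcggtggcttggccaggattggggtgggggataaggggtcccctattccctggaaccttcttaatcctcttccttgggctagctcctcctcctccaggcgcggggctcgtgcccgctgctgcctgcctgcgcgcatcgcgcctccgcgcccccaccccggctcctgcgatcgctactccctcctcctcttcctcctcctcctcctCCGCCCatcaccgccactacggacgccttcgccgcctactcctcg
Gabrb1 first start: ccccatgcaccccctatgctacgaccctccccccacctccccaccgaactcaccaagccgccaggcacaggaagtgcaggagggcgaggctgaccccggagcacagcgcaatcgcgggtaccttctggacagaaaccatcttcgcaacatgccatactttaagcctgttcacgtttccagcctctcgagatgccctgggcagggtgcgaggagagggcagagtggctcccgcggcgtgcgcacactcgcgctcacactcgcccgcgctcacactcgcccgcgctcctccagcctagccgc
Gabrb2 first start: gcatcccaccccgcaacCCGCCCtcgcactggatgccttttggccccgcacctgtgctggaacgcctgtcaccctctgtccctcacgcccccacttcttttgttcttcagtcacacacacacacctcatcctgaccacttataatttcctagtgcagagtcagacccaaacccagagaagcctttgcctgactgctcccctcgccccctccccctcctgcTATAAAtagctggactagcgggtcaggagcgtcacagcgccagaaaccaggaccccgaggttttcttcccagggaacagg

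Per kilobase of exon, Gabra2 was the most abundant of the 7 transcripts, at 10.5 ± 2.7 CPM per kb (SD, n = 19 libraries), followed by Gabra3 at 7.36 ± 1.34 and Gabrg1 at 4.63 ± 0.846 CPM per kb. Gabra5 (2.17 ± 0.349) and Gabrb2 (1.82 ± 0.303 CPM per kb) were lower, and Gabrb1 (0.677 ± 0.173) and Gabrg3 (0.322 ± 0.176 CPM per kb) were the lowest. Each gene in this order exceeded the next in 19 of 19 libraries, apart from Gabra2 over Gabra3 and Gabra5 over Gabrb2, each in 15 of 19. The order of these 2 neighbouring pairs therefore changed between libraries, and Gabra2 was below Gabra3 in 4 libraries. Ranges over the 19 libraries overlapped for both pairs. They also overlapped for Gabra3 and Gabrg1 (5.24 to 10.4 and 3 to 6.24 CPM per kb). The same held for Gabrb1 and Gabrg3 (0.389 to 1.06 and 0.141 to 0.79 CPM per kb). The exon lengths are those of another annotation release than the one counted, and a gene whose long or alternative ends are little used is understated on this scale.

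**Figure D1:**
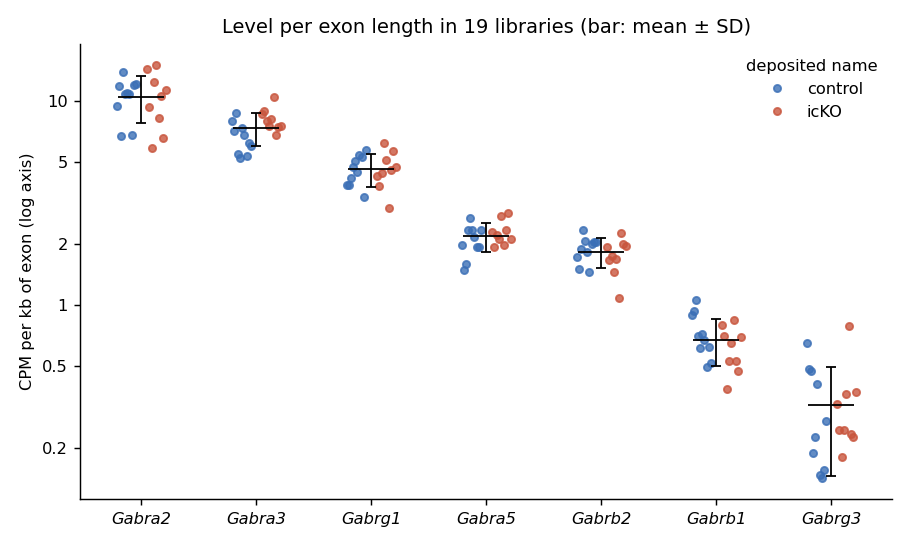
Level of each subunit gene in CPM per kb of exon on a log axis, 1 point per library (19 libraries, coloured by the genotype of the deposited name), with the mean and SD as bars. The genes run from 10.5 CPM per kb for Gabra2 to 0.322 CPM per kb for Gabrg3, and control and icKO points overlap for every gene.

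Within the alpha subunits given here, Gabra2 made up 36.6% to 63.9% of the summed level per kb (median 54.1%), Gabra3 25.3% to 51.4% (median 35%) and Gabra5 7.22% to 16.7% (median 10.6%). Gabra2 is the alpha subunit through which benzodiazepines reduce anxiety in mice, Gabra3 is typical of monoaminergic and other brainstem neurons, and Gabra5 forms extrasynaptic receptors for tonic inhibition in the hippocampus. Of the beta pair, Gabrb2 held 56.2% to 81.8% (median 73.3%). Of the gamma pair, Gabrg1 held 79.1% to 97.4% (median 95.2%). Other alpha, beta and gamma subunit genes are not in these sums, so the shares say nothing on the make-up of the receptors.

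The genes differed in how steady they were. The coefficient of variation over 19 libraries was 16.1% for Gabra5, 16.7% for Gabrb2, 18.2% for Gabra3 and 18.3% for Gabrg1, and 25.6% for Gabrb1 and 25.7% for Gabra2. For Gabrg3 it was 54.6%, where counting error at its mean count would give 12.5%. Gabrg3 held 24 to 201 counts per library, the least depth of the 7 genes, and Gabra2 held 601 to 2505. Counting error alone is thus smaller than the spread between libraries for each of them, and it covers counting only, since reads without molecular identifiers are not independent molecules.

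**Figure D2:**
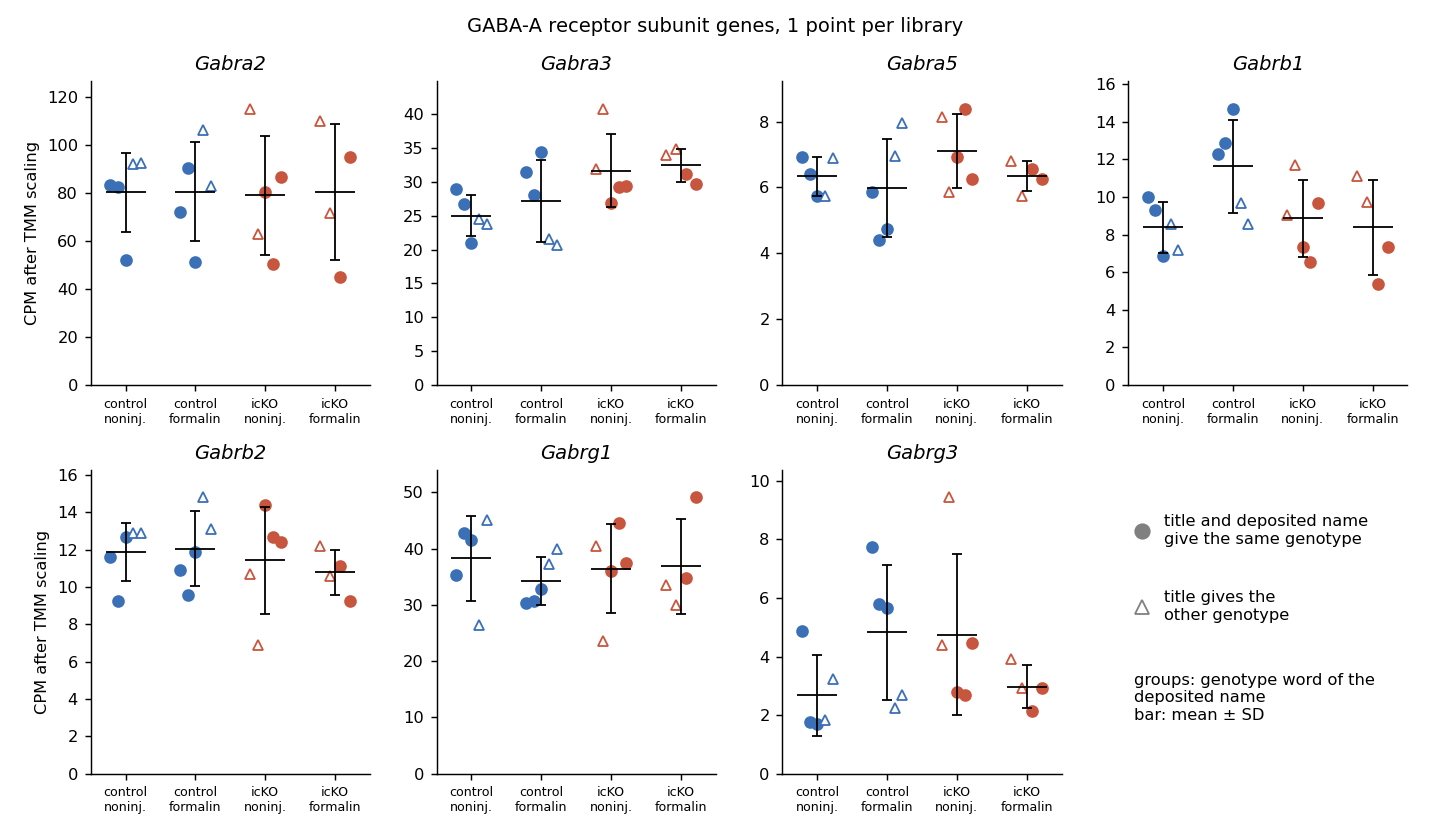
Level of each subunit gene in CPM after TMM scaling, 1 point per library, in the 4 groups by deposited name, with the mean and SD as bars; open triangles are animals whose title gives the other genotype. In formalin control libraries Gabrb1 runs from 8.54 to 14.7 CPM and the 3 filled points lie above both open ones, while Gabra2 spans like ranges in all 4 groups.

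By deposited name, the grouping that separates Prdm12, the comparison asks which subunit genes differ with the Cre and the loss of Prdm12 together. Of the 7 genes, 0 were called over animal totals by edgeR's quasi-likelihood test or by DESeq2 (1 at an unadjusted edgeR p under 0.05), where 1.08% of all 19441 genes tested were called by edgeR, and the median log2 fold (icKO minus control) of the 7 was 0.05, beside 0.01 for all genes. All 7 overlapped between the deposited genotypes, and 4.06% of all genes did not. In bulk ganglia, fewer cells of a type and less RNA per cell cannot be told apart, here and below.

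Among the alpha subunits, Gabra3 had the lowest p, and it was the gene with an unadjusted p under 0.05. Its animal totals were 29.8, 27.5, 27.5, 22.6 and 22.1 CPM in control 2, 3 and 5, icKO 2 and icKO 3, which were deposited as control, and 32.7, 37.2, 27.2, 30.5 and 29.3 CPM in control 1 and 4 and icKO 1, 4 and 5, which were deposited as icKO. The upper icKO values were from the animals titled control, and the groups overlapped. The log2 fold was 0.26 (SE 0.10, 95% interval 0.03 to 0.48; edgeR Benjamini-Hochberg adjusted p = 0.25). In the 6 agreeing animals it was 0.03 (SE 0.09, interval -0.19 to 0.24), and by title -0.22 (SE 0.11, interval -0.46 to 0.03), so its direction depends on the grouping.

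Gabra2 averaged 80.4 ± 17.7 CPM in control and 78.9 ± 24.5 CPM in icKO animal totals (SD, n = 5 and 5). Its log2 fold, adjusted for sex, was 0.05 with a 95% interval of -0.39 to 0.49 (-0.03 with no sex term, the direction of the means), so a change of that size in either direction was within the error. Gabra5 averaged 6.2 ± 0.88 and 6.69 ± 0.743 CPM, with a log2 fold of 0.17 and an interval of -0.07 to 0.40. Both genes overlapped between the groups. In edgeR they had an adjusted p of 0.925 and 0.461.

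Of the beta and gamma genes, Gabrb2 and Gabrg1 had the smallest sex-adjusted folds. Gabrb2, a beta subunit widespread in the adult brain, averaged 12 ± 1.71 and 11.3 ± 2.33 CPM (log2 fold -0.04, interval -0.32 to 0.24). Gabrg1, a gamma subunit with a restricted distribution in brain, averaged 36.5 ± 4.13 and 36 ± 6.52 CPM (log2 fold -0.02, interval -0.31 to 0.27). Both genes overlapped between the groups, with an edgeR adjusted p of 0.909 and 0.961.

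Gabrb1 and Gabrg3 did not overlap between the titled genotypes and overlapped between the deposited ones. Gabrb1 encodes a beta subunit that is scarcer than the other beta subunits in most adult brain regions. Its animal totals were 10.1, 11, 11, 10.5 and 10.7 CPM in control 1 to 5 and 7.45, 9.13, 7.95, 5.83 and 8.33 CPM in icKO 1 to 5. All 5 animals titled control were higher than all 5 titled icKO, including the 4 animals deposited under the other genotype. By title the log2 fold was -0.48 (SE 0.12, interval -0.73 to -0.22), with an edgeR adjusted p = 0.414. Groups did not overlap by title for 1.28% of all genes, and 0% of all genes were called by edgeR there, with 1815 at an unadjusted p under 0.05 and 68 called by DESeq2. By deposited name the log2 fold was -0.24 (SE 0.16, interval -0.60 to 0.12; edgeR adjusted p = 0.487), and in the agreeing animals -0.60 (SE 0.16, interval -0.98 to -0.23; edgeR adjusted p = 0.125).

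Gabrg3, a gamma subunit gene of low expression in the adult brain, was likewise lower in every animal titled icKO than in any titled control. Its animal totals were 4.09, 6.09, 3.61, 6.53 and 3.61 CPM in control 1 to 5 and 2.83, 2.05, 2.94, 2.36 and 3.58 CPM in icKO 1 to 5. The titled groups did not overlap, though the lowest control and the highest icKO values were 3.61 and 3.58 CPM. The log2 fold was -0.80 by title (SE 0.22, interval -1.28 to -0.31; edgeR adjusted p = 0.442), -0.54 in the agreeing animals (SE 0.25, interval -1.13 to 0.04; edgeR adjusted p = 0.291) and 0.08 by deposited name (SE 0.34, interval -0.66 to 0.83; edgeR adjusted p = 0.931). In the 6 agreeing animals Gabrb1 and Gabrg3 did not overlap between genotypes, which held for 22.4% of all genes, and 0.897% of all genes were called. Over animal totals, 0 of the 7 genes were called in the agreeing animals by edgeR or DESeq2 (1 at an unadjusted edgeR p under 0.05), and by title 0 were called by edgeR (2 at an unadjusted p under 0.05) and 1, Gabrb1, by DESeq2.

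**Figure D3:**
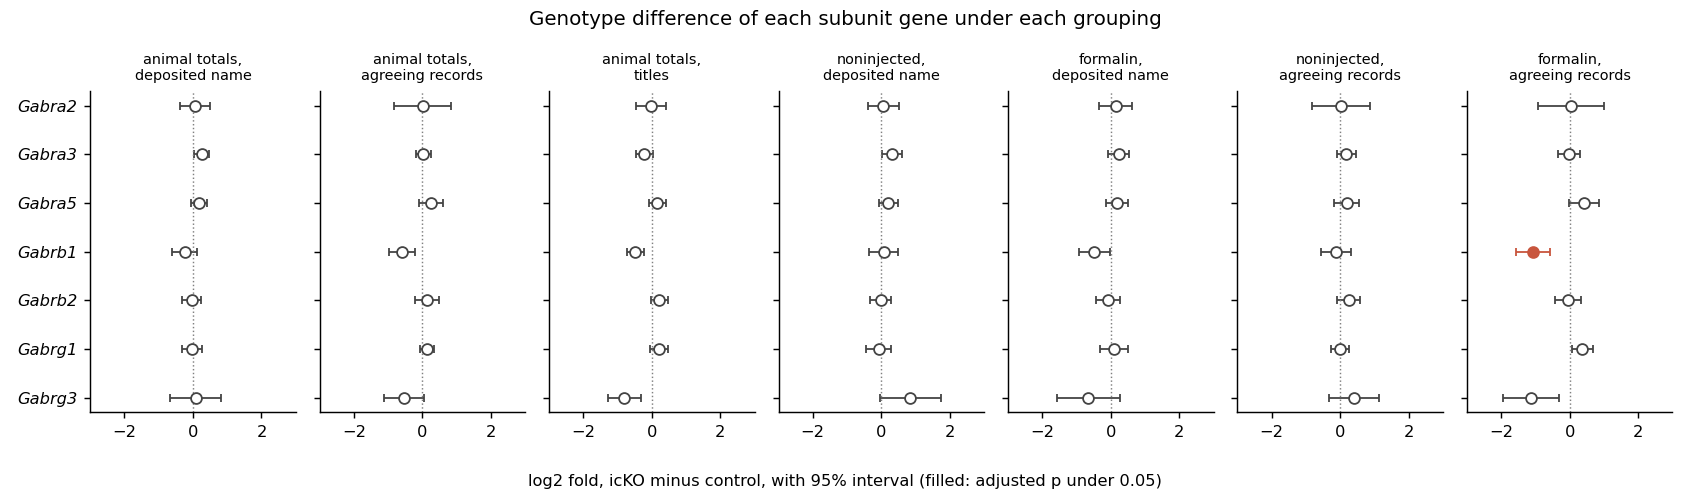
Log2 fold of each subunit gene, icKO minus control, with its 95% interval, for 3 groupings of animal totals and 4 comparisons within 1 agent. The filled point is Gabrb1 in formalin libraries of agreeing animals, at -1.06 with an interval of -1.57 to -0.56, and every other point is open, meaning an adjusted p above 0.05.

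Among noninjected libraries, the 7 genes gave 0 calls by deposited name, where 9.38% of all genes were called by edgeR, and 0 in the agreeing animals, where 4.7% were. DESeq2 called 0 of the 7 in either, and edgeR had 1 (Gabra3) and 0 at an unadjusted p under 0.05. Gabrb1 was at 8.4 ± 1.36 CPM in control and 8.86 ± 2.02 CPM in icKO there by deposited name (SD, n = 5 and 5; log2 fold 0.08, interval -0.35 to 0.50). Gabrg3 was at 4.87, 1.75, 1.69, 1.85 and 3.22 CPM in the noninjected libraries of control 2, 3 and 5 and icKO 2 and 3, and at 4.38, 9.43, 2.79, 2.68 and 4.45 CPM in those of control 1 and 4 and icKO 1, 4 and 5. The highest value, from control 4, stood far from the rest of the icKO group, and the groups overlapped. The log2 fold was 0.85 (SE 0.43, interval -0.05 to 1.75), and Gabra3 had one of 0.32 (SE 0.14, interval 0.03 to 0.61), with an edgeR adjusted p of 0.211 and 0.147.

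In formalin libraries, Gabrb1 fell in icKO among the agreeing animals, the single edgeR call among the 7 genes, where 9.14% of all 17669 genes tested were called. It was at 12.3, 12.9 and 14.7 CPM in control 2, 3 and 5, against 5.38 and 7.34 CPM in icKO 4 and 5. The groups did not overlap, which held for 44.2% of all genes with 3 libraries against 2. Control 2 was female and the other animals here were male, so the icKO side held no female. Both libraries of a mouse entered the fit of 4 groups without an animal term. The log2 fold was -1.06 (SE 0.23, interval -1.57 to -0.56), with edgeR giving an adjusted p = 0.0161 and DESeq2 one of 0.00173. Without control 3 the log2 fold was -1.08 with an edgeR adjusted p = 0.0857, and without control 5 it was -1.0 with an adjusted p = 0.0911, so the fold stayed near its size while the call was lost without either. Without icKO 4 or icKO 5 the log2 fold was -0.88 or -1.27 (edgeR adjusted p = 0.0283 and 0.0111). In both of these fits 1 icKO formalin library is left, which is assumed to vary as the other groups do.

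Those 2 icKO libraries were also the ones that stood apart, and marker lists moved with the comparison. Of all genes, 9.14% were called in it, and the share of all genes with a positive fold is not given here. All 6 erythroid markers rose, with sums of 1465 and 1712 CPM in icKO 4 and 5 against 164 to 217 CPM in the controls. All 6 neutrophil markers and all 6 fibroblast markers had a positive fold (0 called), with neutrophil sums of 3216 and 1481 CPM against 230 to 840 CPM and fibroblast sums of 2676 and 6136 CPM against 1412 to 1782 CPM. Peptidergic nociceptor markers fell in 5 of 7 genes, with sums of 2128 and 2313 CPM against 2903 to 3464 CPM, and pan-neuronal markers summed to 10401 and 8534 CPM against 10817 to 11329 CPM, with 1 of 10 genes called lower. Markers of C-low-threshold mechanoreceptors summed to 216 CPM in both icKO libraries against 285 to 373 CPM, with 1 of 4 called lower, and 0 of 7 non-peptidergic nociceptor markers had a positive fold, with sums of 742 and 1187 CPM against 1194 to 1319 CPM and 1 called lower. All 10 A-fibre markers had a positive fold (1 called), with sums of 6053 and 4596 CPM against 4409 to 4708 CPM. All 7 macrophage markers had a positive fold (0 called), with sums of 159 and 364 CPM against 93.6 to 153 CPM, and all 8 skeletal muscle markers did (0 called), with sums of 30.8 and 1777 CPM against 15.3 to 28.5 CPM. Schwann cell markers summed to 4310 and 4315 CPM against 2931 to 3916 CPM, and endothelium markers to 162 and 137 CPM against 77.1 to 113 CPM. Satellite glia sums, at 3399 and 4471 CPM, lay on both sides of the controls, at 4041 to 4058 CPM. Central nervous system sums overlapped, at 21.9 and 29.5 CPM against 19.4 to 22.8 CPM. With the icKO 5 formalin library left out, Gabrb1 had a log2 fold of -1.30 (edgeR adjusted p = 0.0142), which compares the icKO 4 library alone with the 3 controls and takes the spread from the other groups. The part of these cells in the fold was not tested.

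By deposited name, which adds control 1 and 4 to the icKO group and icKO 2 and 3 to the controls, formalin libraries gave 0 calls among the 7 genes by edgeR or DESeq2 (1 at an unadjusted edgeR p under 0.05), where 3.96% of all genes were called. All 7 overlapped there, and 5.68% of all genes did not. Gabrb1 was at 9.7 and 8.54 CPM in icKO 2 and 3 and at 11.1 and 9.71 CPM in control 1 and 4, each between the levels of the agreeing groups. The log2 fold was -0.48 (SE 0.21, interval -0.92 to -0.03; edgeR adjusted p = 0.237), and -0.77 (edgeR adjusted p = 0.0445) without control 1. In the agreeing animals Gabrg3 was at 7.75, 5.78 and 5.66 CPM in control 2, 3 and 5, against 2.15 and 2.92 CPM in icKO 4 and 5. These agreeing groups did not overlap either, which held for 44.2% of all genes. The log2 fold was -1.13 (SE 0.38, interval -1.95 to -0.31; edgeR adjusted p = 0.079), which became -1.17 (edgeR adjusted p = 0.0415) without control 2. With the 4 other animals, at 2.25 and 2.68 CPM in icKO 2 and 3 and 3.92 and 2.91 CPM in control 1 and 4, it was -0.66 (SE 0.44, interval -1.58 to 0.26; edgeR adjusted p = 0.46).

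Gabrg1 and Gabra5 lay in the opposite direction among the agreeing formalin libraries. Gabrg1 was at 30.3, 30.6 and 32.9 CPM in control 2, 3 and 5, against 34.7 and 49.1 CPM in icKO 4 and 5, with a log2 fold of 0.37 (SE 0.14, interval 0.06 to 0.68; edgeR adjusted p = 0.122). Gabra5 was at 5.85, 4.4 and 4.73 CPM and at 6.56 and 6.25 CPM, with a log2 fold of 0.42 (SE 0.20, interval -0.01 to 0.85; edgeR adjusted p = 0.193). Neither gene overlapped between those groups, which held for 44.2% of all genes, and neither was called. Gabra2 (log2 fold 0.04), Gabra3 (-0.02) and Gabrb2 (-0.05) lay near 0, and the widest of their intervals, that of Gabra2, ran from -0.93 to 1.01.

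With formalin, over both genotypes, 0 of the 7 genes passed the test, with 0 at an unadjusted p under 0.05, and 0% of all genes were called by edgeR (533 of 17671 at an unadjusted p under 0.05; DESeq2 called 2 genes, 0 of them among the 7). The log2 folds, formalin minus noninjected, lay between -0.11 for Gabra5 (interval -0.31 to 0.09) and 0.20 for Gabrb1 (interval -0.13 to 0.53). The largest uncertainty was for Gabrg3, at 0.10 with an interval of -0.63 to 0.82. This fit had no animal term, so the libraries of a mouse were not paired in it.

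Within animals, the mean differences of Gabrb1 and Gabrg3 between formalin and noninjected libraries had opposite signs in the groups by deposited name. Gabrb1 was higher in the formalin library than in the noninjected library of the same mouse in 5 of 5 animals deposited as control, by a mean log2 difference of 0.46 (SD 0.37, from 0.18 to 1.10), and in 1 of 4 deposited as icKO, with a mean of -0.17 (SD 0.31). In control 5 it went from 6.87 to 14.7 CPM. Gabrg3 was higher in 4 of 5 control animals (mean 0.83, SD 0.89) and in 0 of 4 icKO animals (mean -0.70, SD 0.69). In control 3 and control 5 it went from 1.75 to 5.78 and from 1.69 to 5.66 CPM, and in control 4, deposited as icKO, from 9.43 to 2.91 CPM.

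Tested as an interaction, the difference between the genotypes in the formalin effect was -1.51 for Gabrg3 (log2, SE 0.60, interval -2.77 to -0.26; edgeR adjusted p = 0.153) and -0.55 for Gabrb1 (SE 0.29, interval -1.16 to 0.05; edgeR adjusted p = 0.249). With the animal as a block these were -1.52 and -0.61 (edgeR adjusted p = 0.115 and 0.138). The other 5 genes lay between -0.09 and 0.18. No gene of the 7 was called by edgeR or DESeq2, where 0% of all genes were called by edgeR, 4195 of 17671 reached an unadjusted p under 0.05 and DESeq2 called 842.

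**Figure D4:**
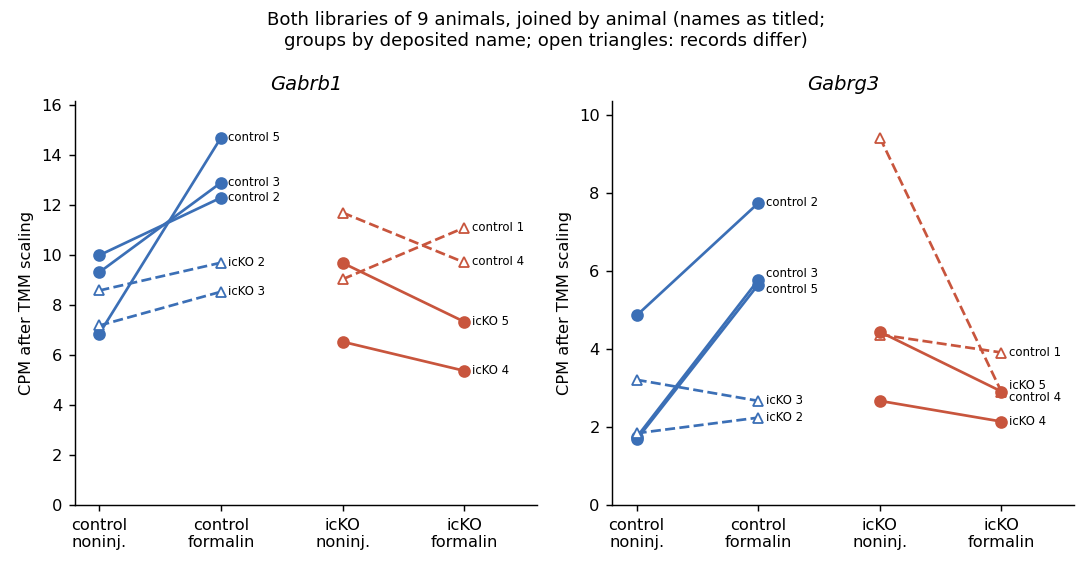
Gabrb1 and Gabrg3 in CPM after TMM scaling in the noninjected and the formalin library of 9 animals, joined by animal and grouped by deposited name, with open triangles and dashed lines for animals titled as the other genotype. Gabrb1 lines rise in all 5 control animals, and Gabrg3 lines rise in 4 of 5 control animals and fall in all 4 icKO animals.

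Between the sexes, 0 of the 7 genes were called by edgeR or DESeq2, with 2 at an unadjusted edgeR p under 0.05, where 0.0669% of all genes were called. Gabra2 was at 91.3 ± 13.7 CPM in 5 females and 67.9 ± 19.6 CPM in 5 males (SD), a log2 fold (female minus male) of 0.44 (SE 0.20, interval -0.00 to 0.88; edgeR adjusted p = 0.397), and its groups overlapped. Gabrb2 (0.28, SE 0.13) and Gabra5 (0.25, SE 0.11) had positive folds and overlapped too, with an edgeR adjusted p of 0.391 and 0.375.

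Over the 19 libraries, the log2 CPM of the 7 genes fell into 2 loose sets. Gabrb1 correlated with Gabrg3 (Pearson r = 0.70, and 0.72 after subtracting the means of the 4 groups), and Gabra3 with Gabrg3 (0.66 and 0.81) and with Gabrb1 (0.40 and 0.78). Gabra5 correlated with Gabrg1 (0.52 and 0.55), and these 2 genes and Gabrb2 had negative r with Gabra3, Gabrb1 and Gabrg3, down to -0.64 between Gabra3 and Gabrb2. Gabra2 stayed between -0.19 and 0.24 with every other gene. These are descriptions over libraries that come in pairs from 1 mouse and share preparation and composition.

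**Figure D5:**
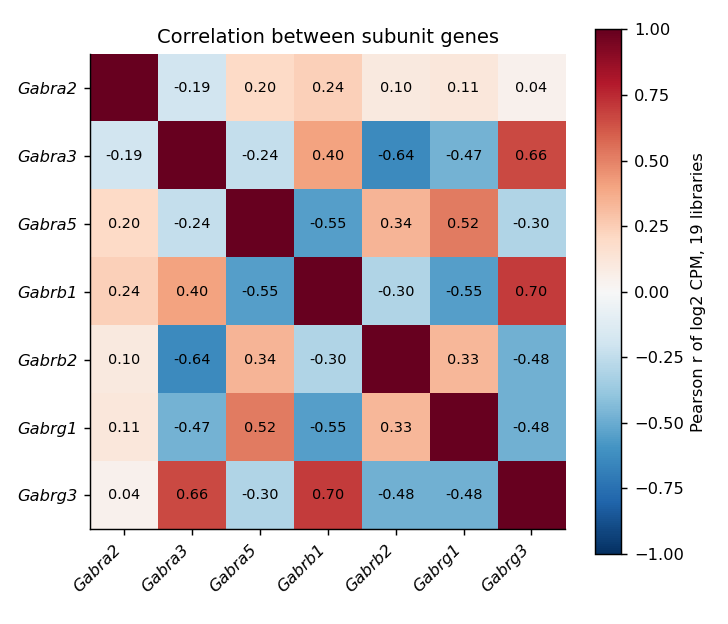
Pearson r between the log2 CPM of each pair of subunit genes over 19 libraries, written in each cell and coloured from blue (-1) to red (1). Gabra3, Gabrb1 and Gabrg3 are positively correlated with one another (0.40 to 0.70), and Gabra2 has no r outside -0.19 to 0.24.

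The genes were also read beside the summed sensory neuron markers. Across the 19 libraries Gabrb1 had r = 0.69 with the summed peptidergic nociceptor markers, 0.73 with those of C-low-threshold mechanoreceptors and -0.52 with those of A-fibre neurons, and Gabrg3 had 0.58, 0.69 and -0.25. Gabrb2 had -0.57, -0.20 and 0.50 with these lists, and Gabrg1 had -0.36, -0.66 and 0.47. With the summed non-peptidergic nociceptor markers, r was 0.52 for Gabrb2, 0.02 for Gabrb1, 0.04 for Gabrg3 and -0.22 for Gabrg1, so nociceptor lists did not all go one way. No one of the 7 genes had an r beyond 0.32 in size with the pan-neuronal sum. Beside these, Gabrb1 had -0.54 with the erythroid sum, and the part of other cells in these values was not tested.

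The genes of closest pattern were sought among 13285 named genes whose log2 CPM averaged 1 or more. Gabrb1 was followed most closely by Zcchc12 and Crhr2, the receptor for urocortins, at r = 0.88 each, and Slc2a13 at 0.85. For Gabrg3 these were Negr1 (0.89), Ctcflos (0.88) and Minar2 (0.87), for Gabra3 the oestrogen receptor gene Esr1 (0.90), Syt16 (0.85) and Nmt2 (0.84), and for Gabrb2 Heatr5a (0.92), Klhl11 (0.91) and Slc24a2 (0.86). Gabrg1 had Glrb, the beta subunit of the glycine receptor, Rps6ka3 and Rab30 at 0.81 each. Gabra5 had Gpx2 (0.81), Sytl2 (0.77) and Me3 (0.75), and Gabra2 had Pycr1 (0.84) and then only Col5a2 and Abhd11 at 0.67. All are over 19 libraries and describe likeness in these samples alone.

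Other genes of GABA signalling were read from 7 lists. As above, fits within noninjected or formalin libraries took both libraries of a mouse without an animal term. Over animal totals by deposited name, 1 of 61 measured genes in these lists was called, a share near the 1.08% of all genes. This was Plcl1, which encodes an inositol phosphate binding protein that takes part in moving GABA-A receptors to the cell surface. It rose from 16.7 ± 1.24 CPM in control to 21.2 ± 2.19 CPM in icKO (SD, n = 5 and 5), the groups did not overlap, and the log2 fold was 0.38 (SE 0.07, edgeR adjusted p = 0.0246). It also rose in noninjected libraries (0.35, SE 0.08, edgeR adjusted p = 0.0118) and in formalin libraries (0.40, SE 0.08, edgeR adjusted p = 0.0173) by deposited name. In the agreeing animals its log2 fold was 0.44 over totals, 0.43 without and 0.46 with formalin, and by title it was 0.18, none of them called (edgeR adjusted p = 0.0849, 0.0548, 0.0512 and 0.624). Its relative Plcl2 rose in formalin libraries, from 12.4 ± 0.995 to 18 ± 4.03 CPM by deposited name (log2 fold 0.54, SE 0.14, edgeR adjusted p = 0.0374) and by 0.78 (SE 0.16, edgeR adjusted p = 0.0114) in the agreeing animals. Over animal totals by deposited name Plcl2 was not called (log2 fold 0.44, edgeR adjusted p = 0.0605).

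In the list of 18 assembly, trafficking and anchoring genes, 3 rose and 0 fell in noninjected libraries by deposited name and 2 rose and 0 fell in formalin libraries, where 9.38% and 3.96% of all genes were called. Beside Plcl1, Clptm1, whose product retains GABA-A receptors inside the cell, rose from 98.7 ± 4.07 to 125 ± 14.3 CPM in noninjected libraries (SD, n = 5 and 5; log2 fold 0.36, SE 0.09, edgeR adjusted p = 0.0218), and Trak1, a mitochondrial trafficking adaptor, rose by 0.33 (SE 0.10, edgeR adjusted p = 0.0452). Neither was called in formalin libraries, where the icKO means were lower, at 105 ± 8.5 and 94 ± 15.7 CPM for Clptm1 and 134 ± 13 and 122 ± 14.3 CPM for Trak1 (SD, n = 5 and 4; log2 fold -0.12 and -0.10, edgeR adjusted p = 0.561 and 0.693). The interaction was -0.49 for Clptm1 and -0.42 for Trak1 (edgeR adjusted p = 0.108 and 0.123). Over animal totals by deposited name neither Clptm1 nor Trak1 was called (edgeR adjusted p = 0.315 and 0.392). In the agreeing animals 1 gene of the list rose without formalin (Trak1, 0.48, SE 0.11, edgeR adjusted p = 0.035), and with formalin 1 rose (Plcl2) and 1 fell (Iqsec3, a guanine nucleotide exchange factor of inhibitory synapses, -0.60, SE 0.17, edgeR adjusted p = 0.047). Of all genes, 4.7% were called there without formalin and 9.14% with it. The median log2 fold of the list was 0.05 over animal totals by deposited name, beside 0.01 for all genes.

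Over the 7 lists, 3 of 56 measured genes rose and 2 fell in noninjected libraries by deposited name, where 9.38% of all genes were called. In formalin libraries by deposited name 2 of 56 rose and 2 fell, where 3.96% were called. Slc12a2, the chloride loader of sensory neurons, fell from 225 ± 7.6 to 182 ± 19.2 CPM in noninjected libraries by deposited name (SD, n = 5 and 5; log2 fold -0.33, SE 0.09, edgeR adjusted p = 0.0269). The other 8 chloride transporter and kinase genes gave no call. In formalin libraries it was at 214 ± 15.2 and 201 ± 33.8 CPM and was not called. Of 9 measured genes of GABA synthesis, uptake and breakdown, Aldh5a1, which encodes succinic semialdehyde dehydrogenase, fell in formalin libraries from 16.4 ± 0.668 to 12.4 ± 1.3 CPM (log2 fold -0.39, SE 0.10, edgeR adjusted p = 0.0318), and 0 others were called. Of 6 other ionotropic GABA receptor genes measured in formalin libraries, Gabrd fell by deposited name from 1.22 ± 0.25 to 0.453 ± 0.31 CPM (log2 fold -1.32, SE 0.36, edgeR adjusted p = 0.0467), a low level, and 0 were called over animal totals in any grouping. In the agreeing animals Slc12a2 (log2 fold -0.26), Aldh5a1 (-0.31) and Gabrd (-1.76) were not called in these same comparisons (edgeR adjusted p = 0.133, 0.162 and 0.0513). Nor were Slc12a2, Aldh5a1 and Gabrd called over animal totals by deposited name (edgeR adjusted p = 0.178, 0.235 and 0.467).

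In agreeing formalin libraries, 2 of 57 measured genes of the 7 lists rose and 2 fell, where 9.14% of all genes were called. Of 6 GABA-B receptor and auxiliary genes, Kctd12 rose in formalin libraries of the agreeing animals, at 70.2 and 121 CPM in the 2 icKO and 25.2 to 35.9 CPM in the 3 control libraries (log2 fold 1.57, SE 0.38, edgeR adjusted p = 0.0429). These were the same 2 icKO libraries that stood apart. In the neurosteroid and modulator list, Akr1c14 fell in noninjected libraries by deposited name (log2 fold -0.69, SE 0.19, edgeR adjusted p = 0.0312). In formalin libraries it was at 3.23 ± 0.734 and 4.38 ± 1.35 CPM (SD, n = 5 and 4; log2 fold 0.29, edgeR adjusted p = 0.474), and the interaction was 0.99 (edgeR adjusted p = 0.108). Over animal totals by deposited name the log2 fold of Akr1c14 was -0.24 (edgeR adjusted p = 0.548). In the same list Srd5a2, a steroid reductase gene, fell in agreeing formalin libraries (-3.86, SE 0.64, edgeR adjusted p = 0.0107). Srd5a2 was at 1.66 CPM in control 2, a female, and at 21.7 and 29.6 CPM in control 3 and 5, both males. It ran from 0.729 to 2.31 CPM in the 2 icKO libraries, both from males, so its groups overlapped. Over animal totals its log2 fold for sex (female minus male) was -4.32 (SE 0.99, edgeR adjusted p = 0.298). By deposited name neither Kctd12 (log2 fold 0.95) nor Srd5a2 (-1.95) was called with formalin (edgeR adjusted p = 0.124 and 0.306). The glycine receptor genes Glrb (log2 fold -0.03, SE 0.09) and Glra2 (0.06, SE 0.49) were the 2 of 5 measured over animal totals, and neither was called.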

How the data were processed

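PolyA RNA of lumbar dorsal root ganglia was sequenced in 20 libraries of 10 mice. The authors deposited raw counts per Ensembl gene for each library. The submitters' processing notes name STAR 2.7.8a, featureCounts 2.0.1, the build GRCm39 and bcl2fastq 2.20.0.422, and per the labels' protocols the kit did not mark strand. Neither the annotation release nor the treatment of multiply mapped reads is given in the sources used here.

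Symbols matched 52083 of 55416 IDs (94%), and exon lengths came from GENCODE M21 on GRCm38. Promoter windows and their coordinates are RefSeq's on GRCm38.p6, not the build of the counts. The 19 libraries with over 1000000 counts were used. Their totals ran from 11763893 to 22392635, and no pair within a group was identical (chi-square per degree of freedom 7.36 to 101). Replicates are mice. Genotype follows the word in the deposited name; titles are the other record.

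Counts were tested with edgeR 4.0.16 (robust quasi-likelihood F test, TMM, filterByExpr, sex as covariate, Benjamini-Hochberg adjustment over all genes tested, threshold 0.05) in R 4.3.3, over animal totals and in fits where 4 groups share 1 dispersion. The fits over animal totals, by deposited name and in the 6 agreeing animals, were also run on simulated counts. The fits of 4 groups were not. The outcome is not given here, and such independent draws cannot show effects of conflicting records or cell composition. SE is the fold over the root of the F statistic. CPM is per 1000000 counts after TMM scaling. Alternatives were RLE size factors, no low-count filter, DESeq2 1.42.0, no sex term, leaving out each animal or the icKO 5 formalin library, fits of only the 2 groups compared, and a replicate block.

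Both libraries of a mouse carry its number, which pairs formalin with noninjected libraries. The correlation of their deviations from the group means ran from -0.00 to 0.52 over 9 pairs.

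The 7 genes, the 22 lists (175 of 176 entries matched) and the tests were chosen with earlier results of these data known. Named beside the 7 genes and Prdm12 are up to 4 genes per list past the threshold, otherwise the 2 of smallest p, and the 3 genes of highest r with each member. Iqsec3 and the further values of genes already named were chosen after they were seen.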

Additional observations from a re-analysis of the deposited data

Results flagged for a closer look

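Of 28 groups of 4 or 5 libraries (7 genes in the 4 groups by deposited name), 2 held a value far from the others, where chance marks about 1 in 20 groups. Gabra2 was at 52.1 CPM in the noninjected library of control 5, and the other 4 noninjected control libraries were at 82.2 to 92.2 CPM. Its formalin library was low as well, at 51.3 CPM. Gabrg3 was at 9.43 CPM in the noninjected library of the animal titled control 4 and deposited as icKO, and the other 4 libraries of that group were at 2.68 to 4.45 CPM.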

How the results depend on the processing

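Of 1008 values of the 7 genes under an alternative, 911 kept their direction and side of the threshold, 82 changed sign, 13 came to pass it and 2 no longer did. Each sign change is of a fold whose 95% interval holds 0, and the cause of the changed values was not tested. With 2 icKO libraries in the agreeing formalin comparison, the depth of Gabrg3 (24 to 201 counts) and 4 animals with conflicting records, absence of a call does not show that a gene did not differ.

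Counts of genes called moved most. Over animal totals by deposited name, 209 genes became 1811 without the low-count filter, 806 with DESeq2, 341 without the icKO 5 formalin library and 76 to 278 without 1 animal. In the agreeing animals 171 became 1880, 1036, 1391 and 8 to 621, and 33 with no sex term. By title 0 became 851, 68 and 0 to 11. In noninjected libraries by deposited name 1658 became 1104 with no sex term and 348 to 2129 without 1 animal, and in the agreeing animals 831 became 2033 with no filter, 1542 with DESeq2, 2128 without the icKO 5 formalin library, 1535 with only the 2 groups compared and 21 to 2046 without 1 animal. In formalin libraries by deposited name 699 became 2129, 1221, 205, 31 and 68 to 1485 in the same order, and 1052 with no sex term, and in the agreeing animals 1615 became 3170 with no filter, 1024 without the icKO 5 formalin library, 1035 with only the 2 groups and 139 to 3360 without 1 animal. For formalin over both genotypes 0 became 1 with no filter, 2 with DESeq2, 1 with no sex term and 0 to 1 without 1 animal. For the interaction 0 became 2519, 842 and 0 to 1762, and for sex 13 became 932 with no filter and 171 with DESeq2.

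Of the 7 genes, dropping the filter called 1 over agreeing totals (Gabrb1), 2 by title (Gabrb1, Gabrg3), 1 in noninjected libraries by deposited name (Gabrg3), 2 in formalin libraries in either grouping (Gabrb1, Gabrg3), 1 in the interaction (Gabrg3) and 1 for sex (Gabra2), and DESeq2 called 1 by title (Gabrb1). Without 1 animal, 0 to 1 were called in formalin libraries by deposited name and 0 to 2 in the agreeing animals.

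With no sex term, the log2 fold of Gabra2 became -0.03 over totals by deposited name, 0.05 by title, -0.02 in noninjected libraries and -0.02 in agreeing formalin libraries, where fitting only the 2 groups gave -0.01. Without the icKO 5 formalin library, Gabra2 became -0.01 over agreeing totals, -0.02 and -0.59 in formalin libraries by deposited name and in agreeing animals, -0.02 for formalin and -0.08 for the interaction, Gabrg1 became -0.07 in formalin libraries by deposited name and 0.03 for sex, Gabra3 0.02 and Gabrb2 0.08 in agreeing formalin libraries, and Gabrb2 0.02 for formalin.

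The replicate block by animal left 0 genes called for formalin and for the interaction, and Gabrb2 became 0.03 in each. The replicate block by title number called 1 gene by title, and Gabra2 became 0.05. Whether title numbers pair the mice of the 2 titled genotypes was not tested. Same-numbered deviations correlated at -0.18 to 0.36, and 3 of 5 correlated best with their own number. No other call among the 7 genes changed under a block.

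Without 1 animal, log2 folds that changed sign or call ranged as follows. Over totals by deposited name, Gabra2 ran from -0.06 to 0.23, Gabrb2 from -0.12 to 0.05, Gabrg1 from -0.09 to 0.08 and Gabrg3 from -0.15 to 0.34. Over agreeing totals Gabra2 ran from -0.29 to 0.25 and Gabra3 from -0.01 to 0.13, and by title Gabra2 from -0.24 to 0.12. In noninjected libraries by deposited name, Gabra2 ran from -0.06 to 0.22, Gabrb1 from -0.02 to 0.15, Gabrb2 from -0.10 to 0.11 and Gabrg1 from -0.18 to 0.06, and in the agreeing animals Gabra2 from -0.19 to 0.22, Gabrb1 from -0.32 to 0.01, Gabrg1 from -0.07 to 0.07 and Gabrg3 from -0.03 to 1.06. In formalin libraries by deposited name, Gabra2 ran from -0.01 to 0.37, Gabrb1 from -0.77 to -0.34 and Gabrg1 from -0.07 to 0.15, and in the agreeing animals Gabra2 from -0.56 to 0.45, Gabra3 from -0.09 to 0.06, Gabrb1 from -1.27 to -0.88, Gabrb2 from -0.20 to 0.13, Gabrg1 from 0.09 to 0.60 and Gabrg3 from -1.30 to -0.94. For formalin, Gabra3 ran from -0.01 to 0.11, Gabrb2 from -0.06 to 0.05 and Gabrg3 from -0.08 to 0.40. For the interaction, Gabra3 ran from -0.17 to 0.06, Gabra5 from -0.14 to 0.06 and Gabrb2 from -0.23 to 0.05. For sex, Gabrb1 ran from -0.19 to 0.02, Gabrg1 from -0.11 to 0.05 and Gabrg3 from -0.37 to 0.13.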
